A study of Mus musculus with 6 samples.

Results

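Interferon-stimulated genes are the genes that cells switch on when an interferon binds its receptor, and 38 of them were followed here in murine LT-CML stem cells, the long-term stem cells that maintain chronic myelogenous leukaemia in mice. The 38 genes were chosen by symbol, as genes widely used to mark the interferon response. All 38 were found among the 36976 genes of the expression table, and all 38 passed the filter on low values. RNA-Seq had been carried out on 3 Gdpd3+/+ libraries (replicates 1, 2 and 3) and 3 Gdpd3-/- libraries (replicates 5, 6 and 7). Both groups came from C57BL/6 tet-CML-affected mice that carry SCL-tTA and TRE-BCR-ABL1, so that BCR-ABL1 is made in cells that use the SCL promoter once doxycycline is taken from the drinking water. The oncogene was induced 5 weeks after birth, and bone marrow was taken 5 weeks later, when the cells were sorted as lineage-negative, Sca-1+, c-Kit+, CD150+, CD48- and CD135-. The Gdpd3-/- mice additionally lacked Gdpd3, a lysophospholipase D, through a genome-edited deletion of 5 bp. Cells of several mice were combined, 22 males and 12 females in the Gdpd3+/+ group and 5 males and 5 females in the Gdpd3-/- group. The labels do not say which mice entered which library, so a p-value measures the spread between these libraries only. The comparison asks which interferon-stimulated genes differ between LT-CML stem cells with and without Gdpd3.

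Type I interferons bind the receptor pair Ifnar1 and Ifnar2, whose kinases Jak1 and Tyk2 phosphorylate Stat2 among others. Stat2 joins Irf9 in a complex that binds a DNA element named the ISRE in front of many antiviral genes. Interferon gamma acts through Ifngr1, Ifngr2, Jak1 and Jak2 on another element, named GAS, in front of genes for GTPases and antigen presentation. Interferons push dormant haematopoietic stem cells into division, stem cells keep part of the programme on without infection, and interferon alpha has long been used against chronic myelogenous leukaemia.

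Levels are given as FPKM, fragments per kilobase of gene scaled to the number of fragments mapped. The amount of sequence assigned to genes, recovered from the table, was 4.98 to 6.28 Gb for the Gdpd3+/+ libraries and 2.13 to 3.64 Gb for the Gdpd3-/- libraries. Across 15103 genes, log2 values correlated at r = 0.973 to 0.979 within Gdpd3+/+, at 0.808 to 0.865 within Gdpd3-/- and at 0.799 to 0.933 between the groups. Gdpd3 itself stood at 7.30, 3.29 and 2.95 FPKM in Gdpd3+/+ and at 0.110, 0.0129 and 0.681 in Gdpd3-/-, without overlap (log2 fold change -4.00 ± 0.77 SE, limma, Benjamini-Hochberg adjusted p = 0.0588). The sort markers Kit, Ly6a (Sca-1) and Slamf1 (CD150) were present in every library and overlapped between groups. Flt3, which encodes the CD135 that the gate excludes, was higher in Gdpd3-/- (36.8 to 46.5 against 9.80 to 11.0 FPKM, limma, Benjamini-Hochberg adjusted p = 0.00562). Of the 7 markers listed as excluded by the sort, Cd48 also lay above without overlap (39.8 to 44.8 against 51.6 to 92.2). Itgam (Mac1) lay below (19.3 to 22.3 against 1.69 to 13.4). Ptprc is on that list for B220, but its FPKM covers every form of the gene product. Skeletal muscle transcripts were higher in Gdpd3-/-: the 12 marker genes did not overlap between groups, and their summed FPKM was 901 to 1329 in Gdpd3+/+ against 2213 (replicate 7) to 16573 (replicate 6) in Gdpd3-/-. Neutrophil markers went the other way, with 5 of 8 below and none above without overlap (8.27% and 23.5% of all tested genes) and sums of 23288 to 27221 against 6253 to 13044.

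Against this background, more interferon-stimulated genes were high than low in Gdpd3-/- LT-CML stem cells, most by less than 2-fold. Rtp4, Oasl2, Ifi35 and Ifitm1 passed the test as higher (limma on log2(FPKM + 0.1), Benjamini-Hochberg adjusted over 24689 genes, threshold 0.05). That is 4 of 38 genes (10.5%), where 1.09% of all tested genes passed as higher. None passed as lower, where 0.616% of all tested genes did, and at an unadjusted p under 0.05 limma gave 15 genes higher and 1 lower, where 16.5% and 5.76% of all tested genes were. In 15 of the 38 genes (39.5%) the 3 Gdpd3-/- libraries lay above all 3 Gdpd3+/+ libraries, against 23.5% of all tested genes and 28.2% of the genes with a mean of at least 1 FPKM. In 2 of the 38 (5.26%), Ifit2 and Zbp1, they lay below, against 8.27% of all tested genes and 10.2% of those with a mean of at least 1 FPKM. The remaining 21 overlapped. The median log2 fold change of the 38 genes was 0.33, beside 0.24 for all tested genes, and 30 of the 38 were above 0 while 25 were above that median of all genes. Scaling by trimmed means (TMM) took the median of all genes down to 0.05 and that of the 38 to 0.12, so each difference below stands on a general shift of the table. After that scaling, 9 of the 38 still lay above without overlap (14.5% of all tested genes), and after quantile normalization 12 did (13.6% of all tested genes). Without Gdpd3-/- replicate 7 the count was again 15 (30.8% of all tested genes). The split of all called genes also depended on the scaling, with 270 higher and 152 lower as deposited, 118 and 252 after TMM, and 119 and 206 after quantile normalization. Calls were few and depended on single libraries. With Gdpd3+/+ replicate 1, 2 or 3 left out, none of the 38 passed, with 12, 9 and 9 of them at an unadjusted p under 0.05 in limma. Over all tested genes only 0, 1 and 21 passed in these settings, so the missing calls are not particular to the 38. Without Gdpd3-/- replicate 5 only Rtp4 passed (187 of 23727 tested genes did), and without replicate 6 there were 3 (462 of 23839). Without replicate 7 there were 6 with Ifitm3 and Eif2ak2 added, but 3413 of all 24056 tested genes passed as well. After TMM scaling only Rtp4 remained (370 of 24689 tested genes passed).

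**Figure D1:**
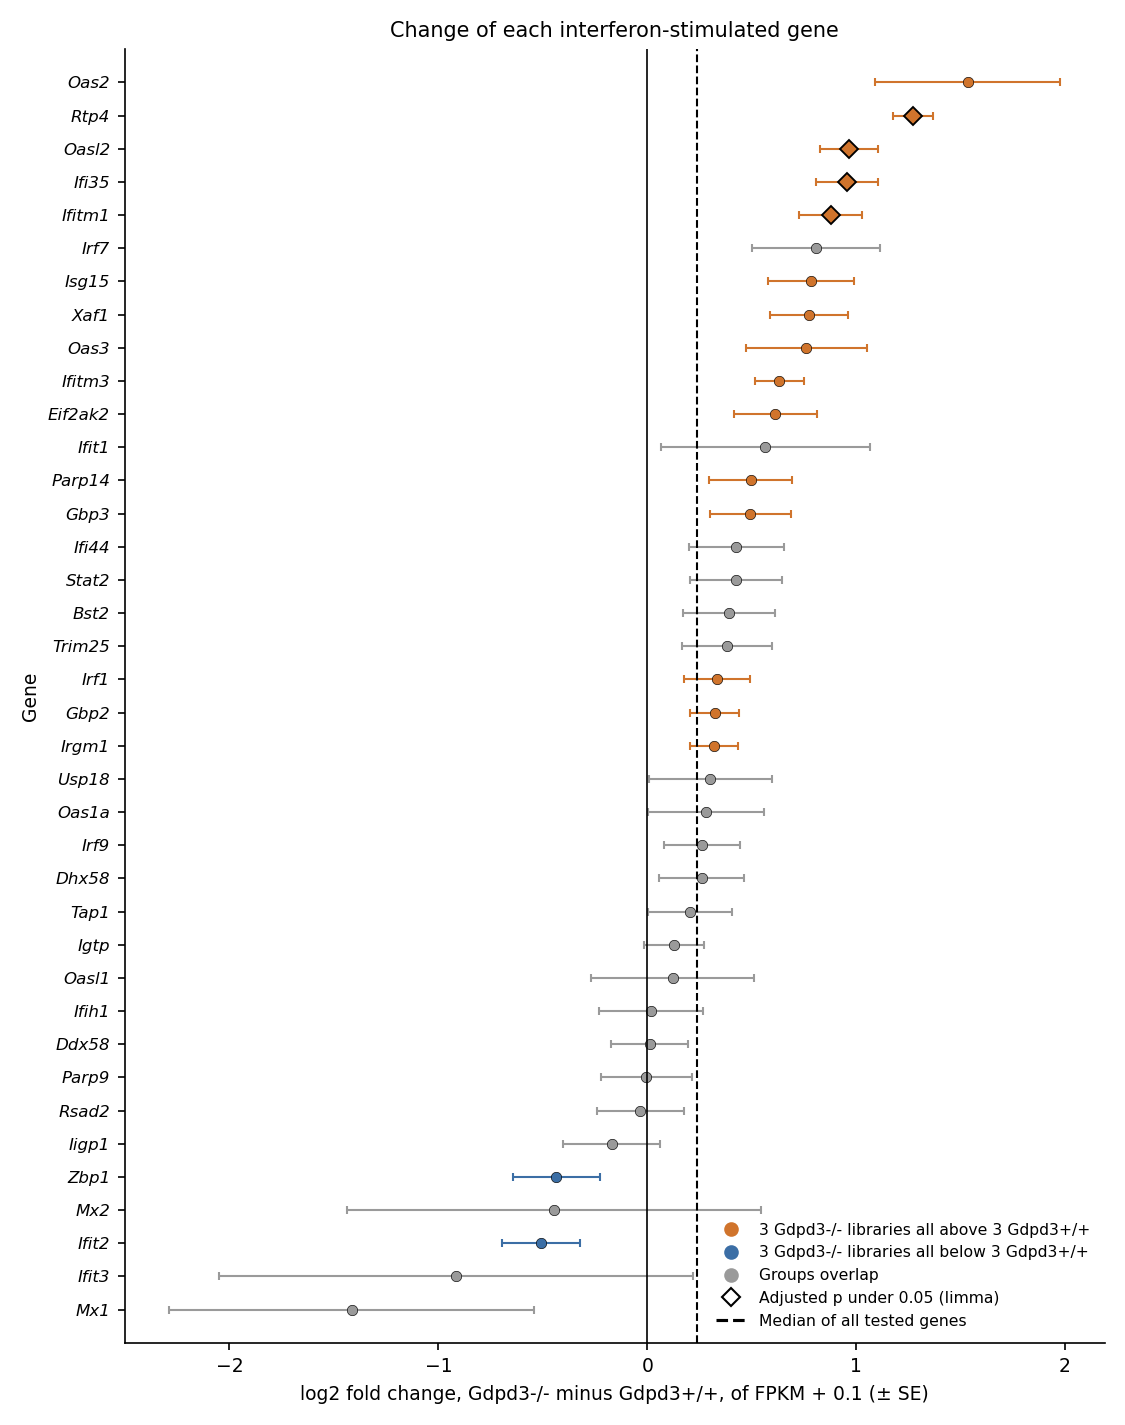
Log2 fold change (Gdpd3-/- minus Gdpd3+/+, of FPKM + 0.1) of the 38 interferon-stimulated genes, with bars for ± SE of the limma fit over 3 libraries per group. Orange and blue points mark genes whose groups do not overlap, grey points those that overlap, diamonds the 4 genes with an adjusted p under 0.05, and the dashed line the median of all tested genes at 0.24. Oas2 lies farthest right at 1.53 with a wide bar, while Rtp4 at 1.27 has the narrowest bar of the 4 diamonds.

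The DNA around the start sites of many of these genes shows the element that the name of the group refers to. The windows run from 250 bases before to 50 bases after each start site and were taken from RefSeq (GRCm38.p6), where 28 of the 38 genes had an entry. The core of the ISRE is GAAA and GAAA with any 2 bases between (TTTC and TTTC on the other strand). Searched on both strands, it occurred in 16 of the 28 genes (57.1%) and in 3.99% of all 27025 genes with such a window. Wholly before the start site it occurred in 12 of the 28 (42.9%) and in 3.46% of all genes. The core of GAS, TTC and GAA with any 3 bases between, which reads the same on both strands, occurred in 8 of the 28 (28.6%) and in 9.55% of all genes, and 2 of these 8 matches shared bases with an ISRE match. A match is a description of letters only. The stretches below are shown because they carry matches in front of genes whose groups overlapped and of genes whose groups did not. Runs of overlapping or neighbouring ISRE cores are in capitals, and each stretch reads 5′ to 3′ in the direction of the gene. Isg15, Oas3 and Gbp3 had groups that did not overlap and were higher in Gdpd3-/-, whereas Bst2, Ifit1 and Ifit3 overlapped. None of these genes passed the test, and differences between them were not tested. The log2 fold change of Ifit1 (0.57) was larger than that of Gbp3 (0.49).
Isg15 (chr4:156200855-156200916, minus strand): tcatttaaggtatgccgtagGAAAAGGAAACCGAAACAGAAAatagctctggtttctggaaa
Oas3 (chr5:120777705-120777754, minus strand): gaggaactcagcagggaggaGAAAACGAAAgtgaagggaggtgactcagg
Gbp3 (chr3:142559979-142560034, plus strand): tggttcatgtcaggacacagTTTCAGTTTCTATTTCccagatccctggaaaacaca
Bst2 (chr8:71537567-71537622, minus strand): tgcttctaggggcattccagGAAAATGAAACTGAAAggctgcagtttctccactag
Ifit1 (chr19:34640765-34640833, plus strand): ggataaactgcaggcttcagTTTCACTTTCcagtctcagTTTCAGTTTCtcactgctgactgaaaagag
Ifit3 (chr19:34583353-34583436, plus strand): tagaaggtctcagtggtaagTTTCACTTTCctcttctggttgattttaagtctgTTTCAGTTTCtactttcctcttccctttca
The first core starts 78 bases before the start site in Isg15, 75 in Oas3, 45 in Gbp3, 130 in Bst2, 104 in Ifit1 and 156 in Ifit3. The 16 genes with an ISRE match had a median log2 fold change of 0.36, and 7 of them lay above without overlap, where 23.5% of all tested genes did. The 12 genes with a window but no match had a median of 0.40, with 5 above and 1 below (8.27% of all tested genes lay below), and 3 of the 4 called genes (Oasl2, Ifi35 and Ifitm1) are among these 12, while Rtp4 has no entry.

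Of the 4 transcription factors that carry the interferon signal into the nucleus, none passed the test, and Irf7 had the largest difference. Stat2 stood at 5.75, 5.76 and 8.27 FPKM in Gdpd3+/+ and at 7.16, 8.91 and 10.5 in Gdpd3-/-. Irf9, its partner in the DNA-binding complex, stood at 15.2, 14.2 and 11.3 against 18.2, 13.1 and 17.7. Both overlapped between groups. Irf1, a factor induced most strongly by interferon gamma, was at 31.8, 29.2 and 25.3 against 32.7, 43.9 and 32.8 FPKM, so that the lowest Gdpd3-/- library lay just above the highest Gdpd3+/+ library (log2 fold change 0.33 ± 0.16 SE, limma, Benjamini-Hochberg adjusted p = 0.267). Irf7, which amplifies the type I response, was at 6.03, 4.56 and 5.49 against 5.91, 12.9 and 10.9. Replicates 6 and 7 thus held more than 2 times the mean Gdpd3+/+ level of Irf7, while replicate 5 lay within the Gdpd3+/+ range (log2 fold change 0.81 ± 0.30 SE, limma, Benjamini-Hochberg adjusted p = 0.188). Exons of Irf1 and Irf7 share some bases with a neighbouring gene on the opposite strand, and these libraries do not mark the strand. Exons of Irf9 share some bases with Rnf31 on the same strand.

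Among the 5 sensors of foreign nucleic acid no gene passed the test, and none lay above without overlap. Ifih1 (MDA5) and Ddx58 (RIG-I), the sensors of viral RNA in the cytosol, had log2 fold changes of 0.02 ± 0.25 and 0.01 ± 0.18 (SE). Dhx58, a helicase that tunes both, had 0.26 ± 0.20 and Trim25, a ubiquitin ligase acting on RIG-I, had 0.38 ± 0.22. Zbp1, a sensor of Z-form nucleic acid that can trigger necroptosis, went the other way. It stood at 7.75, 7.17 and 8.55 FPKM in Gdpd3+/+ and at 6.63, 4.35 and 6.56 in Gdpd3-/-, without overlap, and did not pass the test (log2 fold change -0.44 ± 0.21 SE, limma, Benjamini-Hochberg adjusted p = 0.272).

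Of the 9 effectors that act on RNA or its translation, Oasl2 passed. Oasl2 belongs to the oligoadenylate synthetase family, whose enzymes sense double-stranded RNA and activate RNase L. It stood at 12.0, 12.3 and 14.6 FPKM in the Gdpd3+/+ libraries and at 27.5, 26.4 and 22.2 in the Gdpd3-/- libraries. All 3 knockout libraries lay well above the wild-type range, and the means were 12.9 ± 1.42 and 25.4 ± 2.80 (SD, n = 3), a ratio of 1.96 (log2 fold change 0.97 ± 0.14 SE, limma, Benjamini-Hochberg adjusted p = 0.0335). Oas2, with the largest fold change of the 38 genes, stood at 0.903, 1.71 and 1.40 against 2.12, 5.67 and 5.07 FPKM. Replicate 5 was much closer to wild type than replicates 6 and 7, and the difference did not pass (1.53 ± 0.44 SE, limma, Benjamini-Hochberg adjusted p = 0.115). Oas3 was at 2.05, 2.40 and 2.10 against 5.53, 2.96 and 3.25, so that here replicate 5 was the highest (0.76 ± 0.29, adjusted p = 0.191 in the same limma fit). Oas2 and Oas3 are neighbours on chromosome 5 and yet placed the Gdpd3-/- libraries in opposite order. Oas1a overlapped, at 14.5, 15.2 and 14.7 against 11.3, 22.2 and 23.3, as did Oasl1, which lies beside Oasl2 and stood at 2.15, 2.21 and 1.79 against 1.33, 2.22 and 3.71. The near copy Oas1g, looked at after its values were seen, placed the libraries as Oas1a did (3.21, 3.30 and 3.09 against 2.10, 4.63 and 5.42), and reads may have been split between them. Eif2ak2 encodes PKR, the kinase that halts translation on double-stranded RNA. It was at 6.08, 6.56 and 5.40 against 9.09, 11.6 and 7.45, without overlap (0.61 ± 0.20, adjusted p = 0.141 in the limma fit).

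The Ifit genes, which encode proteins that bind foreign RNA ends, did not move together. In mm9, the build of the deposited table, Ifit2 (chr19:34625184-34650909), Ifit3 (chr19:34658021-34663221) and Ifit1 (chr19:34715361-34724499) lie in a row on the plus strand. Ifit2 stood at 11.5, 14.4 and 12.9 FPKM in Gdpd3+/+ and at 7.45, 11.3 and 8.80 in Gdpd3-/-, below without overlap (log2 fold change -0.51 ± 0.19 SE, limma, Benjamini-Hochberg adjusted p = 0.181). Ifit1 was at 3.30, 3.13 and 4.79 against 2.49, 10.1 and 6.49, with replicate 5 below and replicates 6 and 7 above every wild-type library. Ifit3 was at 1.66, 1.66 and 1.64 against 1.43, 0.0393 and 3.67. The 3 wild-type values of Ifit3 were nearly equal, whereas the knockout values ran from near 0 to about 2 times wild type. In replicate 6, the library with the highest Ifit1, the value of Ifit3 corresponds to 1.67 reads of 150 bases, against 96.3 to 121 in the Gdpd3+/+ libraries. The similar gene listed as I830012O16Rik, also looked at after its values were seen, was at 0.320, 0.590 and 0.504 against 0.118, 0.0304 and 2.48, so both were lowest in replicate 6 and highest in replicate 7.

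**Figure D2:**
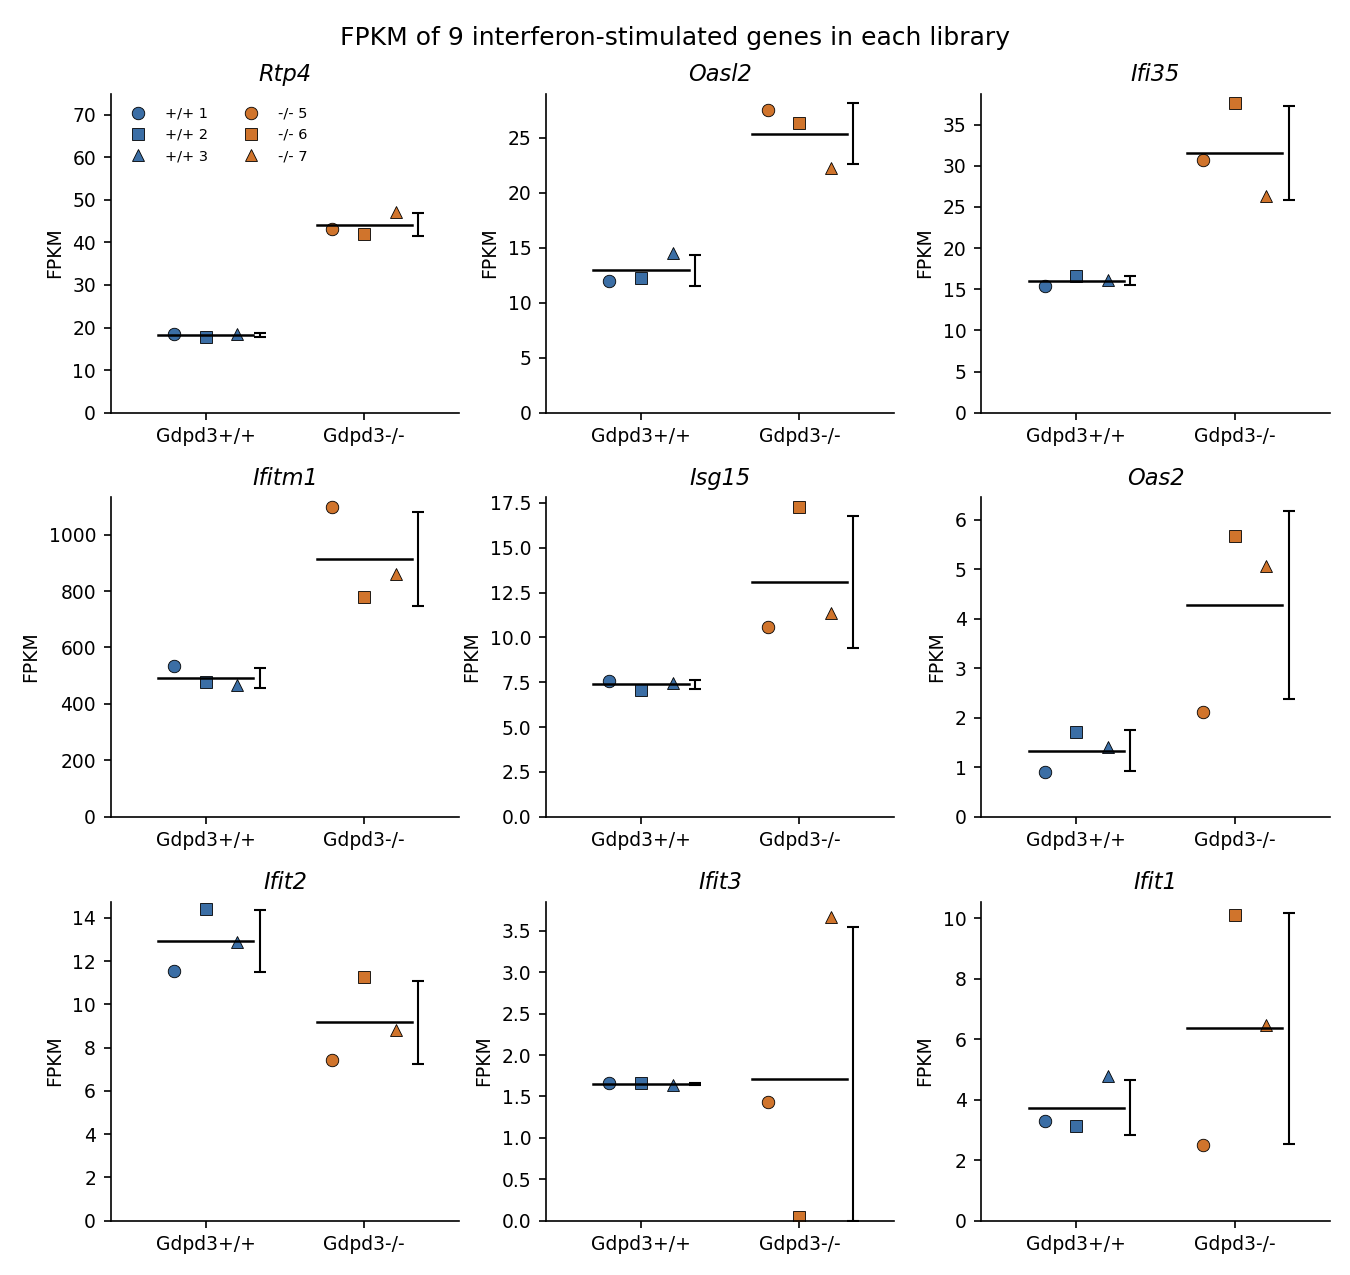
FPKM (vertical axes, linear and from 0) of 9 interferon-stimulated genes in the 3 Gdpd3+/+ (blue) and 3 Gdpd3-/- (orange) libraries, with the mean as a line and the SD as a bar, which is cut at 0 for Ifit3. Rtp4, Oasl2, Ifi35 and Ifitm1 separate the groups with a gap, Oas2 separates them narrowly, Ifit2 lies lower in Gdpd3-/-, and Ifit1 and Ifit3 spread over the whole wild-type range.

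The clearest difference of all 38 genes was in Rtp4, a chaperone of receptor trafficking that also restricts flaviviruses (mm9 chr16:23610005-23614308, plus strand). Rtp4 stood at 18.5, 17.8 and 18.4 FPKM in Gdpd3+/+ and at 43.3, 42.1 and 47.2 in Gdpd3-/-. The values within each group were close together and the groups were far apart, with means of 18.2 ± 0.411 and 44.2 ± 2.67 (SD, n = 3) and a ratio of 2.42 (log2 fold change 1.27 ± 0.10 SE, limma, Benjamini-Hochberg adjusted p = 0.00720). It was called under 12 of 15 alternative settings, with limma adjusted p from 0.00212 to 0.0779, and lost the call when Gdpd3+/+ replicate 1, 2 or 3 was left out (adjusted p = 0.0779, 0.0745 and 0.0701). The Ifitm proteins sit in membranes and block the fusion of virus particles, and Ifitm3 and Ifitm1 were the highest of the 38 genes. Ifitm1 was at 533, 476 and 467 FPKM against 1100, 778 and 860, with a ratio of means of 1.85 (log2 fold change 0.88 ± 0.15 SE, limma, Benjamini-Hochberg adjusted p = 0.0491). Ifitm3 was at 579, 600 and 557 against 1016, 819 and 865, a ratio of 1.56 (0.63 ± 0.12, adjusted p = 0.0567 in the same limma fit). Both placed replicate 5 highest and left a gap to the wild-type libraries, although only Ifitm1 passed the threshold, and the difference between the 2 genes was not tested. Bst2 (tetherin), which holds budding virus at the cell surface, was the third highest gene and overlapped, at 47.0, 48.5 and 40.9 against 42.5, 77.0 and 64.2. Rsad2 (viperin), an enzyme that makes a chain-terminating nucleotide, had a log2 fold change of -0.03 ± 0.21 (SE). Mx1 and Mx2 encode GTPases that trap viral nucleocapsids, and C57BL/6 mice carry a defective Mx1. Mx1 was at 1.50, 0.861 and 0.376 against 0, 0.467 and 0.578 FPKM, and Mx2 at 0.719, 0.455 and 0.527 against 1.42, 0 and 0.642. These were the only genes of the 38 listed at 0 in any library, replicate 5 for Mx1 and replicate 6 for Mx2, and their log2 fold changes of -1.42 and -0.45 had SEs of 0.87 and 0.99.

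Isg15, a ubiquitin-like protein that is joined to other proteins during the response, stood at 7.58, 7.08 and 7.46 FPKM in Gdpd3+/+ and at 10.6, 17.3 and 11.3 in Gdpd3-/-. The groups were separate and replicate 6 was the highest, but the difference did not pass (log2 fold change 0.78 ± 0.21 SE, limma, Benjamini-Hochberg adjusted p = 0.0966). Usp18, the protease that removes Isg15 and damps signalling at the type I receptor, overlapped at 5.71, 9.31 and 8.20 against 8.39, 7.18 and 13.6. Without Gdpd3-/- replicates 5 and 6, where the lone knockout library is assumed to vary as the wild-type libraries do, the log2 fold change of Isg15 was 0.62.

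Ifi35, a leucine-zipper protein that pairs with Nmi, was the third gene to pass by p. It stood at 15.4, 16.6 and 16.1 FPKM in Gdpd3+/+ and at 30.6, 37.7 and 26.3 in Gdpd3-/-. The groups did not overlap, and the SD over 3 libraries was 0.577 in Gdpd3+/+ and 5.73 in Gdpd3-/-, with a ratio of the means of 1.97 (log2 fold change 0.96 ± 0.15 SE, limma, Benjamini-Hochberg adjusted p = 0.0417). Its exons share 290 of their 1727 bases (16.8%) with Gm11626 on the opposite strand, which stood at 24.0, 23.3 and 23.7 against 46.0, 53.6 and 39.0. Without strand, the reads of the 2 genes cannot be told apart on that shared stretch. Nmi, its partner and no member of the 38, was at 16.7, 19.8 and 19.2 against 22.7, 22.6 and 22.1, also without overlap. Xaf1, a promoter of cell death that binds an inhibitor of caspases, was at 3.82, 3.40 and 3.81 against 7.18, 5.28 and 6.79 (0.78 ± 0.19, adjusted p = 0.0871 in the limma fit). Parp14, an ADP-ribosyltransferase, was at 2.47, 2.46 and 2.85 against 3.82, 3.93 and 3.35, without overlap and without a call. Its neighbour and relative Parp9 had a log2 fold change of -0.00 ± 0.22 (SE), and Ifi44 had 0.43 ± 0.23, both with overlap.

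The 6 genes that respond mainly to interferon gamma had small differences. Gbp2 and Gbp3 encode guanylate-binding proteins and Irgm1 an immunity-related GTPase, all of which act at the vacuoles of intracellular pathogens. Gbp2 was at 18.4, 15.7 and 16.1 FPKM against 19.5, 22.1 and 21.2, Gbp3 at 12.6, 12.8 and 11.6 against 16.4, 22.9 and 14.0, and Irgm1 at 19.1, 18.4 and 15.9 against 22.9, 22.7 and 21.1. The 3 genes were above without overlap, with log2 fold changes of 0.32 to 0.49, and none passed the test. Igtp and Iigp1, further GTPases of this kind, overlapped (0.13 ± 0.14 and -0.17 ± 0.23, SE), as did Tap1, which carries peptides to MHC class I (0.21 ± 0.20).

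**Figure D3:**
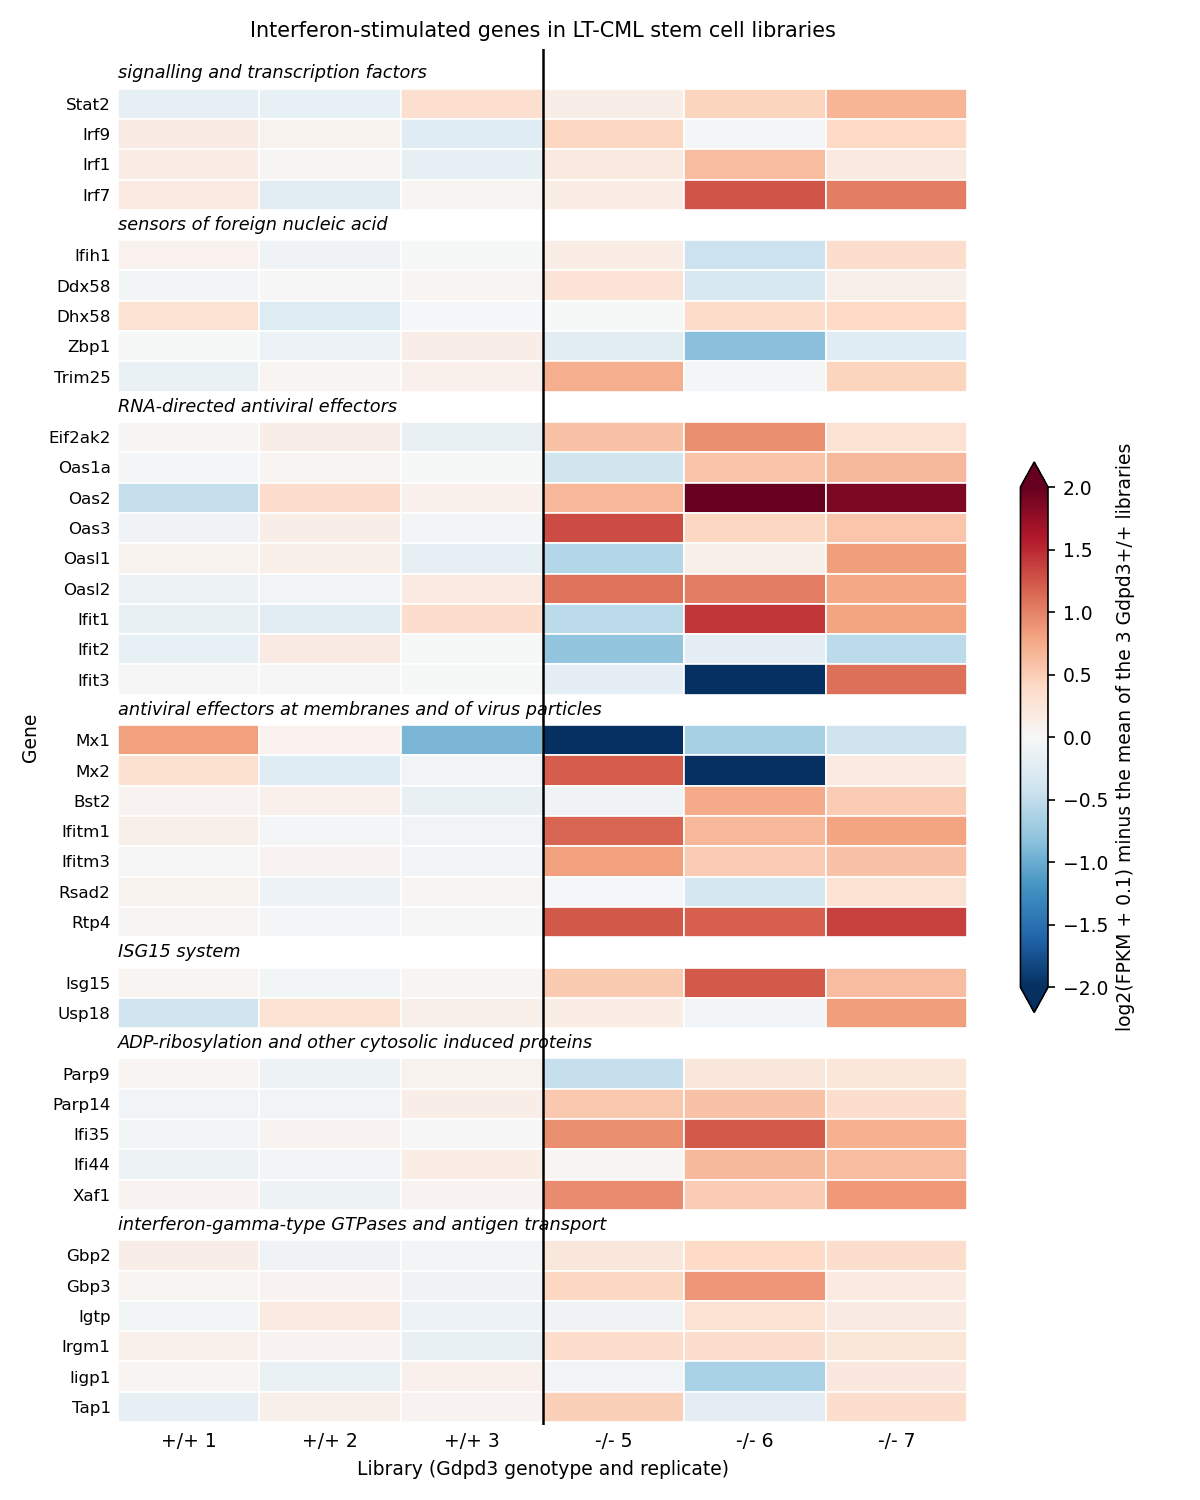
Log2(FPKM + 0.1) of each of the 38 genes (rows, grouped by role) in each library (columns) minus the mean of the 3 Gdpd3+/+ libraries, with red for higher and blue for lower and colours saturating at 2. Rtp4, Oasl2, Ifi35, Ifitm1 and Ifitm3 are red in all 3 Gdpd3-/- columns, whereas Ifit1, Ifit3, Mx2 and Oas1a change sign between those columns.

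The Gdpd3-/- libraries differed among themselves in how many of the 38 genes left the wild-type range. In replicate 5, 21 genes lay above the highest and 8 below the lowest Gdpd3+/+ library (50.8% and 27.9% of all tested genes). In replicate 6 the counts were 25 and 9 (47.5% and 31.4% of all tested genes), and in replicate 7 they were 33 and 2 (53.5% and 18.0%). The share of interferon-stimulated genes above wild type was largest in replicate 7, 86.8%, as was the share of all tested genes, 53.5%. The median over the 38 genes exceeded that over all tested genes by 0.03 on the log2 scale in replicate 5, 0.32 in replicate 6 and 0.22 in replicate 7. Spread between replicates was wider in Gdpd3-/- for 34 of the 38 genes, as it was for 86.4% of all tested genes. The median SD of the log2 values was 0.13 in Gdpd3+/+ and 0.35 in Gdpd3-/- over the 38, and 0.15 and 0.52 over all tested genes.

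**Figure D4:**
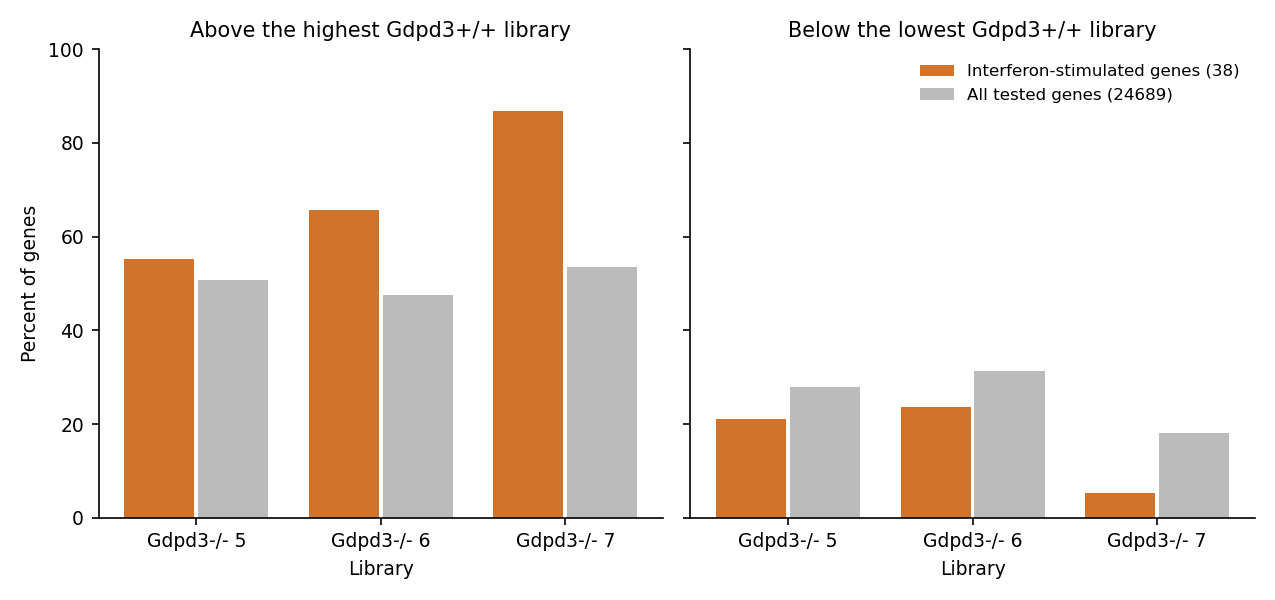
Percent of the 38 interferon-stimulated genes (orange) and of all 24689 tested genes (grey) above the highest (left) or below the lowest (right) of the 3 Gdpd3+/+ libraries, for each Gdpd3-/- library. The 2 bars are close in replicate 5 (55.3% and 50.8% above) and farthest apart in replicate 7 (86.8% and 53.5%).

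The other genes of the pathway show where the 38 stand. The interferons themselves were at or near 0. Of 19 interferon ligand genes in the table, 4 passed the filter on low values and none was called (limma, unadjusted p under 0.05 for 0 as well). Ifna2 was listed at 1.28 FPKM in replicate 6 and at 0 elsewhere, Ifng at 0.626 in replicate 7 and at 0 elsewhere, Ifna1 at 0.730 in Gdpd3+/+ replicate 3 and 0.863 in Gdpd3-/- replicate 5 and at 0 elsewhere, and Ifnb1 at up to 0.145 in Gdpd3+/+ and at 0 in Gdpd3-/-. Ifnz reached 0.251 in replicate 6, Ifnab 0.0951 in Gdpd3+/+ replicate 2, Ifna5 0.0822 in replicate 5, Ifna9 0.0719 in replicate 6 and Il28b 0.0567 in replicate 7. No interferon gene was thus above 0.1 FPKM in more than 1 library of a group.

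Of the receptors, Ifngr1, the ligand-binding chain for interferon gamma, was lower in the knockout libraries, at 136, 138 and 141 FPKM against 74.5, 100.3 and 81.9. The groups were far apart, yet the difference stood just outside the threshold (log2 fold change -0.70 ± 0.12 SE, limma, Benjamini-Hochberg adjusted p = 0.0514). Its partner Ifngr2 was at 9.85, 11.1 and 11.3 against 12.1, 12.7 and 12.4. The type I chains overlapped, Ifnar1 at 15.6, 11.0 and 13.9 against 13.8, 8.04 and 13.6 and Ifnar2 at 36.4, 36.2 and 38.3 against 51.7, 35.7 and 41.3. Il10rb was at 15.1, 15.9 and 16.3 against 17.1, 20.8 and 17.8, and Il28ra, the lambda receptor, did not exceed 0.966. The receptor kinases did not move together. Jak2 was at 25.2, 24.1 and 24.8 against 5.96, 17.3 and 20.4, below without overlap and with replicate 5 far from the others (log2 fold change -0.94 ± 0.44 SE, limma, Benjamini-Hochberg adjusted p = 0.261). Tyk2 was at 11.4, 11.3 and 8.38 against 13.8, 13.1 and 14.1, above without overlap (0.41 ± 0.16, adjusted p = 0.195 in the same limma fit). Jak1 overlapped (-0.03 ± 0.09, SE).

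Genes beyond the 38 that interferon gamma induces for antigen processing held the clearest calls of the wider pathway. Over 105 tested pathway genes outside the 38, Psmb10, Psmb8 and Tgtp1 passed as higher (1.09% of all tested genes did) and none as lower, and limma gave 32 higher and 4 lower at an unadjusted p under 0.05, where 16.5% and 5.76% of all tested genes were. Psmb10 and Psmb8 are subunits of the immunoproteasome, which cuts peptides for MHC class I. Psmb10 was at 57.9, 60.0 and 57.8 FPKM against 92.6, 103 and 94.5 (log2 fold change 0.72 ± 0.09 SE, limma, Benjamini-Hochberg adjusted p = 0.0255), and Psmb8 at 77.8, 81.4 and 75.5 against 118, 111 and 111 (0.53 ± 0.08, adjusted p = 0.0417 in the same fit). Both showed tight and separate groups. Tgtp1, a GTPase with a near-identical copy Tgtp2 that could share its reads, was at 43.6, 40.3 and 38.3 against 70.0, 57.7 and 69.2 (0.68 ± 0.11, adjusted p = 0.0471). Of the 24 tested rows of this list, 17 lay above without overlap and 1, Cd74, below, where 23.5% and 8.27% of all tested genes did. Psmb9 and Ciita each have 2 rows in it, and those of Psmb9 share exons. Among 42 tested further interferon-stimulated genes, 12 lay above without overlap and 1, Samd9l, below, close to the 28.2% above among all genes with a mean of at least 1 FPKM. Among 12 sensing genes the counts were 2 and 1, and among 12 negative regulators, Socs1 and Socs3 included, they were 3 and 0. The shares of all tested genes were again 23.5% above and 8.27% below. In these 3 lists none was called by limma, with 13, 3 and 3 genes at an unadjusted p under 0.05, where 22.2% of all tested genes were. After TMM scaling, or without any of the Gdpd3+/+ replicates, none of the 105 genes was called as higher.

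Transcripts of other cell types moved with the genotype as well, and their part in these differences was not tested. In bulk libraries, fewer cells of a type and less RNA per cell cannot be told apart. Plasmacytoid dendritic cells, the main makers of type I interferon, were represented by 10 rows, of which 5 lay above without overlap, including the 2 rows of Runx2, and 1, Ly6d, below (23.5% and 8.27% of all tested genes). Their summed FPKM was 229 to 269 in Gdpd3+/+ and 333 to 1470 in Gdpd3-/-, and Cox6a2, which muscle also uses, was at 78.4 to 114 against 213 to 1406, and Ly6d at 128 to 143 against 46.1 to 99.4. Klk1 was at 0 in all libraries. Siglech, a defining marker of these cells, was at 0.125 to 0.160 against 0.341 to 1.91. The monocyte and macrophage sum was 1783 to 1861 against 522 to 734, most of it Ly6c2, with 1 of 10 genes above and 1 below without overlap. The B and plasma cell sum was 36542 to 39764 against 9396 to 19350, most of it Ighm, with 2 of 8 genes below and 1, Cd79b, above without overlap (39.5 to 39.9 against 50.2 to 58.7). For this list and the monocyte list, the shares of all tested genes were 23.5% above and 8.27% below. The T and NK cell sum was 388 to 463 against 166 to 334, most of it Nkg7 (382 to 457 against 149 to 313), which lay below without overlap. In the same list Trbc1 lay above (0.887 to 1.67 against 3.53 to 13.6), and Gzma passed as higher (0.150 to 0.560 against 3.81 to 10.6, limma, Benjamini-Hochberg adjusted p = 0.0321). Replicate 7 had the lowest muscle sum of its group, and 33 of the 38 genes lay above the wild-type range in it (53.5% of all tested genes). Replicate 6 had the highest, and 25 did (47.5% of all tested genes). Replicate 5 lay between them in muscle sum, and 21 did (50.8% of all tested genes), so the counts did not follow the order of the sums. Without replicates 5 and 6, the log2 fold change of Rtp4 was 1.37, the highest of its 15 alternatives. The other called genes fell in that setting, Oasl2 from 0.97 to 0.78, Ifi35 from 0.96 to 0.71 and Ifitm1 from 0.88 to 0.81.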

How the data were processed

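Total RNA of sorted LT-CML stem cells had been made into libraries with the SMART-Seq v4 Ultra Low Input kit and the Nextera XT kit, which do not mark the strand, and sequenced as paired-end reads of 150 bases. The submitters' processing notes name Trimmomatic, Trim Galore, cutadapt 1.16, STAR 2.6.1a, featureCounts 1.6.1, DESeq2 and the mm9 build. The authors deposited FPKM values for 36976 genes in 6 libraries, and these were used. They also deposited a DESeq2 table of their own comparison (fold changes and p-values), which was not used. FPKM times gene length gave whole covered bases in all libraries (tolerance 0.1), from which depth and read equivalents of 150 bases were taken. Read counts were not recovered, so no count model was run and FPKM bounds no counting error.

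Libraries were grouped by the genotype in their labels. Genes with a mean of at least 0.05 FPKM (24689) were tested on log2(FPKM + 0.1) with limma 3.58.1 (R 4.3.3), with an intensity trend, genotype as the only term and Benjamini-Hochberg adjustment over all tested genes. The script had been tested on simulated data. That test gave all libraries the Gdpd3+/+ spread, so it does not show how calls behave with the wider spread of Gdpd3-/-. Fold changes on this scale understate the change of low genes. With 3 libraries against 3, an exact two-sided permutation test of a single gene cannot go below p = 0.1, so none is quoted. As 15 alternatives, the pseudocount was set to 0.01 or 1, the filter was dropped or raised to a mean of 1 FPKM, and the fit was repeated with TMM and quantile scaling, no trend, array weights, each library left out, and without Gdpd3-/- replicates 5 and 6. Counts of genes without overlap under scaling, or without libraries, were added after seeing the data. Motifs were searched in RefSeq windows of 300 bases (GRCm38.p6), never joined with mm9 positions.

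The 38 genes, their 7 roles, the 7 pathway lists and the 11 marker lists were chosen with earlier results of these data known. Named are all 38 genes by symbol, those called or without overlap, the 5 of highest level, those at 0 in a library, called pathway genes, the receptors and every interferon gene of at least 0.05 FPKM in a library. A result under this rule is not reported here. The list of 3 sort markers summed to 477 to 551 FPKM in Gdpd3+/+ and 481 to 677 in Gdpd3-/-. The 7 markers against the sort summed to 141 to 173 and 176 to 213, with Ptprc, there for B220 only, at 48.2 to 54.4 and 36.9 to 50.4. The sums were 305 to 323 and 344 to 407 for 11 stem cell markers. They were 3149 to 4959 and 1963 to 4934 for erythroid markers, and 217 to 316 and 200.4 to 503 for megakaryocyte markers.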

Additional observations from a re-analysis of the deposited data

How the results depend on the processing

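No paired analysis was possible because the groups share no replicate number. The 17 of the 38 genes that were called or did not overlap kept the sign of their log2 fold change in all 15 alternatives, 255 values in all, of which 32 lost a call and 6 gained one. Of the 4 called genes, Rtp4 passed in 12 alternatives, Oasl2 in 6, Ifi35 in 6 and Ifitm1 in 4, by limma with Benjamini-Hochberg adjustment, and the cause was not tested.

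The number of the 38 genes called was 2 with a pseudocount of 1, without a filter, after quantile normalization and with array weights, and 1 after TMM scaling and without the intensity trend. Leaving out 1 library gave 0 to 6. Over all genes the calls (422) became 225 with a pseudocount of 1, 213 without a filter, 673 at a mean of at least 1 FPKM, 153 without the trend and 240 with array weights, and 0 to 3413 with 1 library left out, 0 without Gdpd3+/+ replicate 1 and 3413 without Gdpd3-/- replicate 7. Without Gdpd3-/- replicates 5 and 6 there were 2294, from 1 library against 3.

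Pathway genes outside the 38 called as higher (3) were 6 at a mean of at least 1 FPKM, 0 after TMM scaling and without the trend, 1 after quantile normalization and with array weights, 12 without replicates 5 and 6, and 0 to 9 with 1 library left out. Called as lower (0) was 1 gene with a pseudocount of 0.01, at a mean of at least 1 FPKM, after TMM, after quantile normalization, with array weights and without replicates 5 and 6, and 0 to 3 with 1 library left out.

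The median log2 fold change of the 38 genes fell to 0.1174 after TMM scaling, while its distance from the median of all genes stayed between 0.06 and 0.22. Of the genes above without overlap, 9 remained after TMM scaling (14.5% of all tested genes). Without replicates 5 and 6 the count was 33 (53.5% of all tested genes), from 1 library. Depth was lower in the Gdpd3-/- libraries, and its part in the values at or near 0 was not tested.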
